A study of Caenorhabditis elegans with 9 samples.

Results

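The genes that attach coenzyme A to fatty acids and then oxidise the acyl chains, together with the lysosomal acid lipase homologues that free fatty acids from stored fat, were followed on 9 expression arrays of whole Caenorhabditis elegans. A probe set was taken as a member when its platform annotation named 1 gene, with a symbol of the acs, cpt, acdh, acox, ech, hacd or lipl series. This gave 76 of the 22548 probe sets that are not controls, for 65 of 17118 genes. By family these were 23 acs, 6 cpt, 12 acdh, 5 acox, 10 ech, 1 hacd and 8 lipl genes. One further probe set named both acox-1.3 and acox-1.4 and was left out. The rule reads symbols and no measured value, and the families were picked with earlier results of these data known. The study asked how expression in animals without a transgene differs from that in lines carrying extra SUMO-1, the small ubiquitin-like modifier of the worm. Wild-type N2 animals, which carry no transgene, served as controls. The aex-3 SUMO animals were transgenic for aex-3::his-SUMO-1 (strain JS62), which places a His-tagged SUMO-1 under control of the aex-3 promoter, which is active in neurons. The myo-4 SUMO animals were transgenic for myo-4::his-SUMO-1 (strain JS63), behind the promoter of myo-4, another name of the body wall muscle myosin gene unc-54. Each group had 3 replicate populations, all fed OP50 bacteria, synchronised by bleaching and labelled as L1 larvae, the first larval stage. Each promoter is represented by 1 line, and a line with a transgene that lacks SUMO-1 was not analysed here, so effects of SUMO-1, of the transgene as such and of the strain cannot be told apart.

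Fatty acids enter metabolism as CoA thioesters made by acyl-CoA synthetases, the acs genes. Carnitine palmitoyltransferases, the cpt genes, carry long chains into mitochondria, where acyl-CoA dehydrogenases (acdh), enoyl-CoA hydratases (ech) and hydroxyacyl-CoA dehydrogenases (hacd) perform successive steps of beta-oxidation. Acyl-CoA oxidases (acox) begin the peroxisomal version, which in worms also shortens the side chains of the ascaroside pheromones. The worm stores most of its fat in the intestine, and the lipl genes encode lipases rather than enzymes of activation or oxidation, so the set is wider than the beta-oxidation pathway itself.

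Signals are linear array intensities as deposited, and tests used limma on log2(signal + 1.623) over 14204 probe sets kept by a filter on dim signals. A gene was called when its Benjamini-Hochberg adjusted p, over all probe sets kept, was under 0.05, and log2 changes are given ± SE. A pair of changes stands for aex-3 SUMO and then myo-4 SUMO, each against N2, unless stated otherwise. The median signal of an array lay between 27.6 and 28.6 for N2, between 23.2 and 24.6 for aex-3 SUMO, and between 24.8 and 25.7 for myo-4 SUMO. Replicates correlated at r = 0.9625 to 0.9775 for N2 and at 0.9857 to 0.9884 within each line, so the N2 arrays spread more. Of 13 intestine markers measured, 9 fell and 0 rose in each line, and their summed signal lay between 21540 and 25110 for N2, between 15130 and 16490 for aex-3 SUMO, and between 13870 and 16810 for myo-4 SUMO. No intestine marker was at 0 on any array, the lowest signal being 8.74 for pgp-1. Of 12 oocyte and eggshell markers, 11 rose in each line, with sums between 5181 and 8657 for N2, 10860 and 11970 for aex-3 SUMO, and 11040 and 12050 for myo-4 SUMO, although the animals carry the label of L1 larvae. Of 11 body wall muscle markers, 6 fell and 1 rose in each line, and of 12 neuron markers 9 fell in aex-3 SUMO and 7 in myo-4 SUMO. Of 10 epidermis markers 5 fell in aex-3 SUMO, and in myo-4 SUMO 2 fell and 1 rose. Of 8 sperm markers 0 were called in aex-3 SUMO and 1 fell in myo-4 SUMO. Of 5 pharynx markers 1 rose and 1 fell in aex-3 SUMO, and 2 rose and 1 fell in myo-4 SUMO. Over all genes 24.6% rose and 24.7% fell in aex-3 SUMO, and 24.2% and 21.1% in myo-4 SUMO. The epidermis share in myo-4 SUMO lies near or below these. In whole animals, fewer cells of a type and less RNA per cell cannot be told apart. The deposited arrays look scaled to a common mean, so each rise or fall is relative to the other RNA on its array.

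Of the 65 genes, 57 were tested, each by its brightest probe set, and the members changed in both directions. In aex-3 SUMO 13 of 57 were higher than in N2 and 16 were lower, where 24.6% and 24.7% of the 10768 genes tested were called in those directions. In myo-4 SUMO 14 were higher and 18 lower, beside 24.2% and 21.1% of all genes. As shares of the 57 these are 22.8% and 28.1% in aex-3 SUMO and 24.6% and 31.6% in myo-4 SUMO. The shares of increases lie near those of all genes, and the larger share of decreases in myo-4 SUMO was not tested against them. The median log2 change over the 57 genes was -0.12 in aex-3 SUMO and -0.08 in myo-4 SUMO, beside -0.04 and -0.005 over all genes. Changes of at least 2-fold were called upward in 5 genes in aex-3 SUMO (3.11% of all genes) and downward in 4 (6.86%). In myo-4 SUMO they were called upward in 3 (2.56%) and downward in 6 (5.6%). Both lines were compared with the same N2 arrays, and 10 members were called higher and 14 lower in both, while 20.4% and 18.2% of all genes were.

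**Figure D1:**
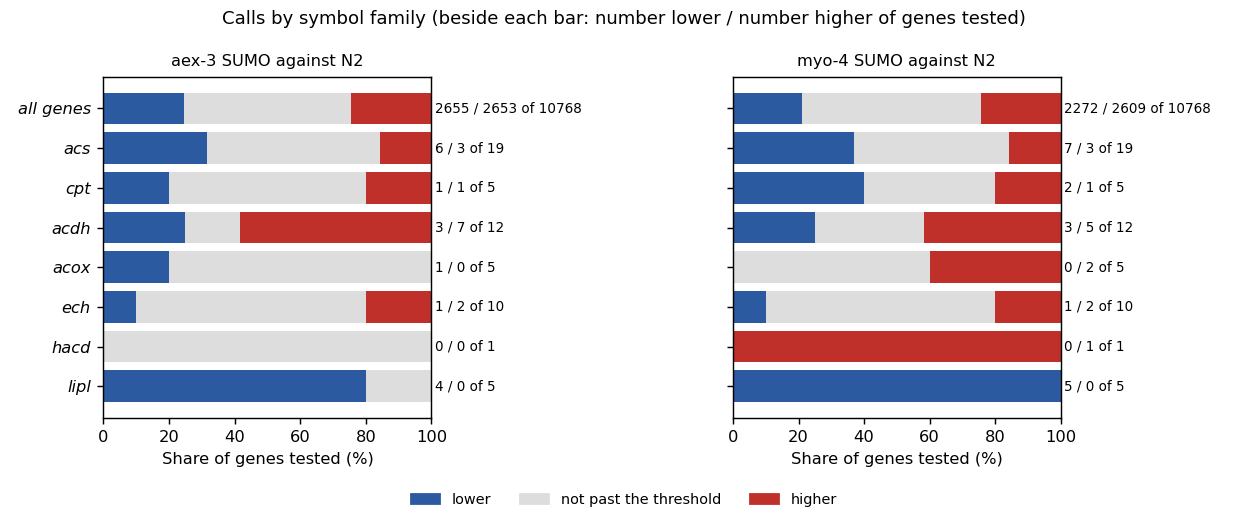
Share of tested genes called lower (blue), not past the threshold (grey) and called higher (red) in each symbol family and over all genes, in each line against N2; the horizontal axis is the percentage of genes tested. The acdh bar holds 7 higher and 3 lower of 12 in aex-3 SUMO, and the lipl bar holds 0 higher in both lines.

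The mix of increases and decreases varied between families, and no test compares one family with another. The acdh genes had 7 higher and 3 lower of 12 in aex-3 SUMO and 5 and 3 in myo-4 SUMO, with median log2 changes of 0.35 and 0.29. The acs genes leaned the other way, with 3 higher and 6 lower of 19 in aex-3 SUMO, 3 and 7 in myo-4 SUMO, and medians of -0.24 and -0.26. No lipl gene rose, while 4 of the 5 tested fell in aex-3 SUMO and 5 of 5 in myo-4 SUMO, with medians of -0.91 and -0.90. The ech genes had 2 higher and 1 lower of 10 in each line, the cpt genes 1 higher and 1 lower of 5 in aex-3 SUMO and 1 and 2 in myo-4 SUMO. The acox genes had 0 higher and 1 lower of 5 in aex-3 SUMO and 2 and 0 in myo-4 SUMO. When each array was centred on its median, the median of all probe sets moved from -0.04 to 0.19 in aex-3 SUMO and from 0.004 to 0.15 in myo-4 SUMO, and the members were then 19 higher and 10 lower in the first line and 18 and 12 in the second. Under that centring the acs genes had 4 higher and 4 lower in aex-3 SUMO and 5 and 4 in myo-4 SUMO, so the excess of decreases among them was not kept under that scaling. The lipl genes still had 0 higher and 3 lower in each line, and the acdh genes 7 and 2 in aex-3 SUMO and 6 and 3 in myo-4 SUMO. Of all 14204 probe sets 7199 were called in aex-3 SUMO and 6607 in myo-4 SUMO under that centring. Their split by direction is not given, so the centred counts cannot be set against shares of all genes. The called intestine and neuron markers fell in each line, as the called lipl genes did, and most called body wall muscle markers fell too. The called oocyte and eggshell markers rose, whereas the acdh genes moved in both directions. The part of any marker list in these changes was not tested.

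Among the acyl-CoA synthetases, acs-19 rose in both lines. It encodes an acetyl-CoA synthetase, which activates the shortest of these acids. The acs-19 signal was 336, 489 and 372 on the N2 arrays, 699.7, 769.8 and 747 in aex-3 SUMO and 673, 776 and 825 in myo-4 SUMO. All 6 arrays of the lines lay above all 3 of N2, with log2 changes of 0.90 ± 0.14 (adjusted p = 0.00028) and 0.94 ± 0.14 (adjusted p = 0.00024). The synthetase gene acs-13 rose as well. For acs-13, the N2 arrays read 202, 180.0 and 137, the aex-3 SUMO arrays 260.3, 222 and 234 and the myo-4 SUMO arrays 251, 247 and 278. Every array of the lines again exceeded every N2 array, and the changes were 0.47 ± 0.14 (adjusted p = 0.015) and 0.59 ± 0.14 (adjusted p = 0.0049), the call in aex-3 SUMO being lost without the first array of that line (adjusted p = 0.066). For acs-1, which is needed in C. elegans for the use of monomethyl branched-chain fatty acids, the signals were 132, 353 and 199.6 in N2, 497, 448 and 484 in aex-3 SUMO and 346, 341 and 282 in myo-4 SUMO. The N2 arrays ranged more widely than those of either line, and their highest lay below all aex-3 SUMO arrays but above all myo-4 SUMO arrays. The change in aex-3 SUMO was 1.17 ± 0.25 (adjusted p = 0.0025), and in myo-4 SUMO it was 0.61 ± 0.25 (adjusted p = 0.067), short of the threshold. Without the second N2 array the latter was 0.98 (adjusted p = 0.00088), and without the first it was 0.27 (adjusted p = 0.24). Its other probe set gave 1.24 in aex-3 SUMO. The acs-4 signal was 178, 277 and 212 in N2, 255, 233 and 259 in aex-3 SUMO and 326, 319.8 and 325 in myo-4 SUMO. The myo-4 SUMO arrays were closely grouped and above all others, with 0.56 ± 0.14 (adjusted p = 0.0069) against N2, whereas aex-3 SUMO overlapped N2 at 0.19 ± 0.14 (adjusted p = 0.30) and was called without the second N2 array (adjusted p = 0.029).

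The acyl-CoA synthetases that fell included acs-20 and acs-22, homologues of mammalian fatty acid transport proteins that C. elegans needs for the barrier at its cuticle surface. In N2 the acs-22 signals were 286, 239 and 338, against 138, 169.9 and 133 in aex-3 SUMO and 179, 170.4 and 161 in myo-4 SUMO. The groups were separate in both lines, at -0.96 ± 0.14 (adjusted p = 0.00024) and -0.74 ± 0.14 (adjusted p = 0.0013). For acs-20 the N2 signals were 113.3, 106.6 and 117.9 and the highest line array was 91.97, with changes of -0.59 ± 0.13 (adjusted p = 0.0027) and -0.44 ± 0.13 (adjusted p = 0.014). Signals of acs-17 were 95.2, 63.6 and 86.1 in N2, 46.9, 44.9 and 46.2 in aex-3 SUMO and 54.7, 45.4 and 34.7 in myo-4 SUMO. Here too the lowest N2 array exceeded every array of the lines, and acs-17 fell by 0.79 ± 0.18 (adjusted p = 0.0037) and by 0.84 ± 0.18 (adjusted p = 0.0027) on the log2 scale. Array signals for acs-16 were 28, 28.8 and 31.7 in N2, 11.7, 4.19 and 14 in aex-3 SUMO and 16.9, 19.4 and 6.06 in myo-4 SUMO. The line arrays of acs-16 were all below N2 and ranged from 4.19 to 19.4. Its changes were -1.54 ± 0.41 (adjusted p = 0.0077) and -1.11 ± 0.41 (adjusted p = 0.041), and the latter call was lost without any 1 of the N2 arrays or of the first and the third myo-4 SUMO arrays, and without the third of these it stood at -0.66 (adjusted p = 0.17). Declines were also called for acs-12 in both lines (-0.58, adjusted p = 0.015 and -0.72, adjusted p = 0.0055), acs-10 in aex-3 SUMO (-0.53, adjusted p = 0.027) and acs-11 in myo-4 SUMO (-0.51, adjusted p = 0.038). Without the first N2 array acs-10 stood at -0.33 (adjusted p = 0.091), and without the second N2 array acs-11 stood at -0.33 (adjusted p = 0.15). The acs-10 call was also lost without the first aex-3 SUMO array (adjusted p = 0.11), and the acs-11 call without the third N2, the first aex-3 SUMO or the first or second myo-4 SUMO array (adjusted p = 0.051 to 0.15). For acs-11 in aex-3 SUMO a call was made without the first N2 array (-0.66, adjusted p = 0.0048), and for acs-10 in myo-4 SUMO without the second (-0.55, adjusted p = 0.032). In aex-3 SUMO the acs-12 call was lost without the third N2 or the first aex-3 SUMO array (adjusted p = 0.063 and 0.076), and in myo-4 SUMO the acs-20 call without the first myo-4 SUMO array (adjusted p = 0.070).

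The synthetase gene acs-2 was called in myo-4 SUMO alone. It encodes a mitochondrial acyl-CoA synthetase that rises on fasting under the nuclear receptor NHR-49. Readings of acs-2 came to 48.4, 202 and 196 in N2, 81.3, 112 and 129 in aex-3 SUMO and 42.1, 40.5 and 39.9 in myo-4 SUMO. The myo-4 SUMO arrays lay below all others and close together, while the first N2 array was far below the other N2 arrays. In myo-4 SUMO the change was -1.57 ± 0.40 (adjusted p = 0.0074), and in aex-3 SUMO it was -0.24 ± 0.40 (adjusted p = 0.64). Without the first N2 array, acs-2 stood at -0.91 (adjusted p = 0.00074) in aex-3 SUMO and at -2.24 (adjusted p = 3.6e-06) in myo-4 SUMO. The second probe set of acs-2 gave -0.30 and -1.42 in the same order. The nhr-49 gene itself was not called in either line.

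In the carnitine palmitoyltransferase family cpt-4 fell furthest. The cpt-4 signal was 125, 99.1 and 86.4 on the N2 arrays, 35.3, 40.7 and 34.8 in aex-3 SUMO and 29.6, 27.6 and 27.7 in myo-4 SUMO. The groups did not overlap, and the changes were -1.44 ± 0.15 (adjusted p = 3.7e-05) and -1.80 ± 0.15 (adjusted p = 7.8e-06). For cpt-5, the N2 arrays read 63.7, 102 and 71.9, the aex-3 SUMO arrays 124, 143 and 121 and the myo-4 SUMO arrays 134, 134 and 101. The aex-3 SUMO arrays were all above N2, and 1 myo-4 SUMO array lay just below the highest N2 array. The log2 changes of cpt-5 were 0.72 ± 0.17 (adjusted p = 0.0047) and 0.64 ± 0.17 (adjusted p = 0.010). The core pair of the mitochondrial import system is cpt-1 and cpt-2. In N2 the cpt-1 signals were 318, 245 and 231, against 224, 194 and 214 in aex-3 SUMO and 200.0, 206 and 209 in myo-4 SUMO. Both lines lay below all N2 arrays, but the changes in cpt-1, which loads the chain onto carnitine, were -0.32 ± 0.13 (adjusted p = 0.059) and -0.35 ± 0.13 (adjusted p = 0.042). Without the first N2 array the latter became -0.21 (adjusted p = 0.11), and its call was lost too without any 1 array of either line (adjusted p = 0.054 to 0.11). In aex-3 SUMO cpt-1 was called without the third N2 array (-0.41, adjusted p = 0.023). For cpt-2, which returns the chain to CoA inside the mitochondrion, the signals were 448.6, 417 and 418.8 in N2, 402.9, 420.1 and 400.9 in aex-3 SUMO, and 420.5, 458.5 and 501.4 in myo-4 SUMO, and neither line was called.

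**Figure D2:**
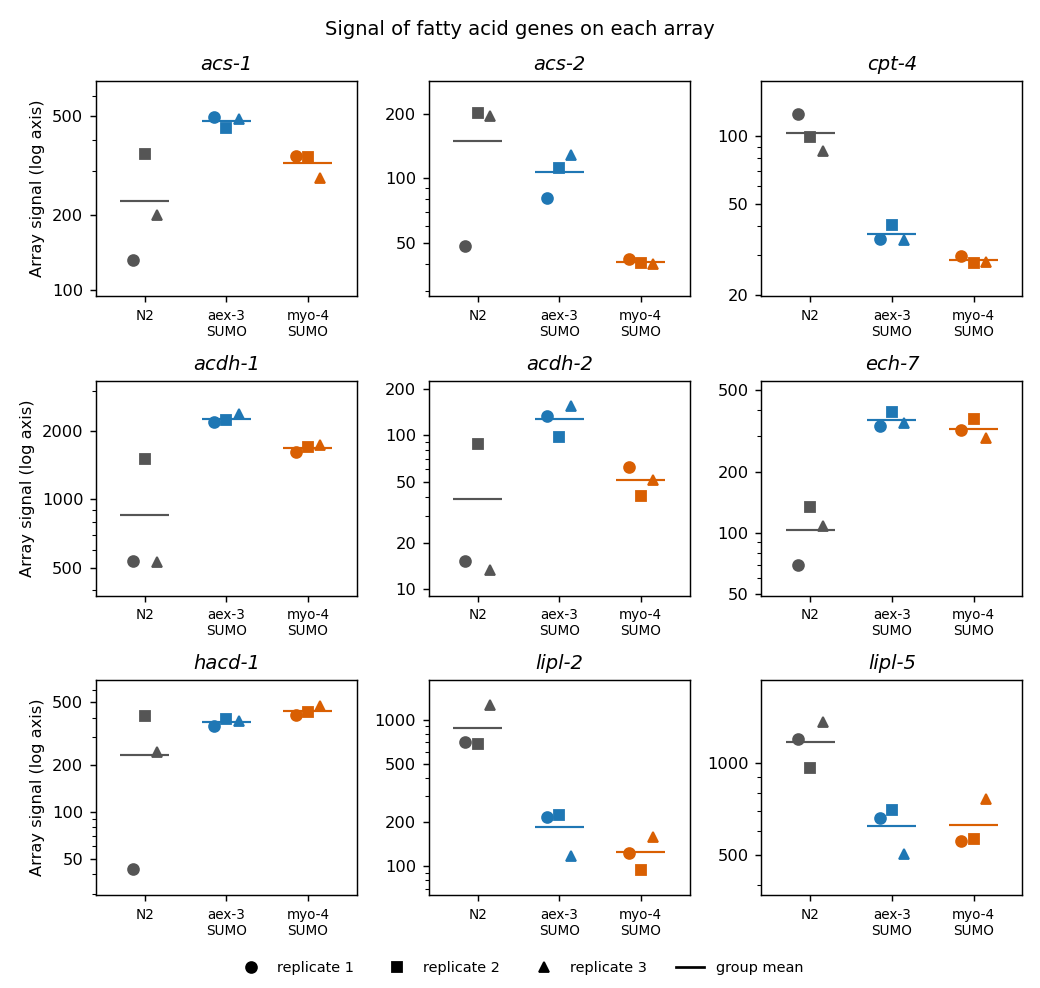
Array signal on a log axis for 9 members in the 3 groups; each point is 1 array, its shape the replicate number and the line the group mean. The N2 points of acs-2, acdh-1, acdh-2 and hacd-1 lie far apart, while those of cpt-4, ech-7 and lipl-2 form a group that no line array enters.

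The acyl-CoA dehydrogenases held the largest increase among the 57 genes in aex-3 SUMO, in acdh-2. Signals of acdh-2 were 15.2, 87.6 and 13.4 in N2, 133, 97.6 and 154 in aex-3 SUMO and 61.8, 40.4 and 51.3 in myo-4 SUMO. One N2 array stood near the line arrays and the other N2 arrays far below, under the 40th percentile of their own array. The filter thus kept acdh-2 mostly through the lines, where it is high. The change in aex-3 SUMO was 2.17 ± 0.50 (adjusted p = 0.0035), with all arrays above N2, while in myo-4 SUMO, where the arrays overlapped N2, it was 0.88 ± 0.50 (adjusted p = 0.17). Without the second N2 array the value in myo-4 SUMO was 1.71 (adjusted p = 0.00015), and without the third it was 0.42 (adjusted p = 0.52). A second probe set of acdh-2 gave 1.24 in aex-3 SUMO but 0.11 (adjusted p = 0.78) in myo-4 SUMO. The acdh-1 enzyme begins the propionate shunt, a beta-oxidation-like route that burns propionate when vitamin B12 is short, and its promoter is used in C. elegans as a sensor of diet. Array signals for acdh-1 were 539, 1506 and 531 in N2, 2197, 2223 and 2373 in aex-3 SUMO and 1611, 1704 and 1733 in myo-4 SUMO. Every line array was above every N2 array, and the second N2 array lay close to the myo-4 SUMO level. Log2 changes were 1.58 ± 0.29 (adjusted p = 0.00091) and 1.15 ± 0.29 (adjusted p = 0.0068), and without the second N2 array they were 2.08 and 1.65. Readings of acdh-13 came to 44, 33.2 and 32.5 in N2, 71.5, 75.2 and 80.1 in aex-3 SUMO and 68.2, 63.3 and 60.6 in myo-4 SUMO. The groups were separate here too, at 1.03 ± 0.14 (adjusted p = 0.00015) and 0.79 ± 0.14 (adjusted p = 0.00087) for acdh-13, a member of the very-long-chain branch.

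Smaller increases were called for acdh-3, acdh-5 and acdh-12 in both lines and for acdh-9 in aex-3 SUMO. The acdh-3 signal was 672, 932 and 800.2 on the N2 arrays, 1105, 1195 and 1162 in aex-3 SUMO and 1127, 1093 and 1001 in myo-4 SUMO. All line arrays exceeded all N2 arrays, with changes of 0.54 ± 0.12 (adjusted p = 0.0030) and 0.43 ± 0.12 (adjusted p = 0.011). For acdh-5 N2 ranged from 28.4 to 32.3, aex-3 SUMO from 39.5 to 40.6 and myo-4 SUMO from 38.2 to 48.7, at 0.37 ± 0.14 (adjusted p = 0.0475) and 0.48 ± 0.14 (adjusted p = 0.016). The changes of acdh-12, also of the very-long-chain branch, were 0.33 ± 0.13 (adjusted p = 0.045) and 0.40 ± 0.13 (adjusted p = 0.023). The acdh-5 and acdh-12 calls in aex-3 SUMO lie close to the threshold, and they were lost in 12 of 16 and 13 of 17 alternative settings, the stricter filter leaving acdh-5 out. In myo-4 SUMO the acdh-5 call was lost without the third array of that line (adjusted p = 0.071), and the acdh-12 call without the second or the third array of N2 or of that line (adjusted p = 0.061 to 0.080). For acdh-9 the change was 0.37 ± 0.11 (adjusted p = 0.015) in aex-3 SUMO and 0.18 ± 0.11 (adjusted p = 0.19) in myo-4 SUMO, and the call was lost without the third aex-3 SUMO array (adjusted p = 0.062).

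Among the acyl-CoA dehydrogenases 3 fell in both lines. For acdh-6, the N2 arrays read 41.8, 43 and 52, the aex-3 SUMO arrays 12.9, 16.9 and 14.1 and the myo-4 SUMO arrays 20, 19.4 and 17.8. No line array came near N2, and the changes were -1.54 ± 0.18 (adjusted p = 5.7e-05) and -1.19 ± 0.18 (adjusted p = 0.00028). In N2 the acdh-7 signals were 467, 478 and 531, against 277, 324 and 258 in aex-3 SUMO and 304, 366 and 361 in myo-4 SUMO. For acdh-7, a homologue of the human medium-chain enzyme, the line arrays all lay below N2 at -0.78 ± 0.12 (adjusted p = 0.00032) and -0.52 ± 0.12 (adjusted p = 0.0043). The second homologue of that enzyme, acdh-8, was called in neither line, but was in myo-4 SUMO without the third N2 array (-0.42, adjusted p = 0.024). The acdh-11 product is known to lower expression of the desaturase gene fat-7 during heat adaptation in C. elegans. Signals of acdh-11 were 266, 249 and 366 in N2, 208, 226 and 207 in aex-3 SUMO and 211, 189.8 and 193 in myo-4 SUMO. The line arrays were all below N2. Its changes were -0.43 ± 0.14 (adjusted p = 0.021) and -0.54 ± 0.14 (adjusted p = 0.0073), and without the third N2 array, the highest, the value in aex-3 SUMO was -0.27 (adjusted p = 0.061). That call was lost too without the first or the third aex-3 SUMO array (adjusted p = 0.066 and 0.068).

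Of the 5 peroxisomal acyl-CoA oxidase genes, 3 were called, each in 1 line. Array signals for acox-1.1 were 97.7, 173 and 117 in N2, 145, 172 and 161 in aex-3 SUMO and 176, 208 and 182 in myo-4 SUMO. For acox-1.1, an oxidase that shortens ascaroside side chains, all myo-4 SUMO arrays exceeded N2 and aex-3 SUMO overlapped it, at 0.58 ± 0.18 (adjusted p = 0.018) and 0.34 ± 0.18 (adjusted p = 0.13) in that order. Readings of acox-1.5 came to 253, 212 and 183 in N2, 225, 270.1 and 258 in aex-3 SUMO and 268, 264 and 297 in myo-4 SUMO. The myo-4 SUMO arrays lay above N2, the nearest by a narrow margin. The increase of acox-1.5 in myo-4 SUMO was 0.36 ± 0.13 (adjusted p = 0.040), a call lost under 12 of 17 alternatives. The acox-1.6 signal was 85.8, 83.7 and 84.5 on the N2 arrays, 59, 70 and 59.8 in aex-3 SUMO and 77, 69.4 and 96 in myo-4 SUMO. The aex-3 SUMO arrays of acox-1.6 were below all N2 arrays at -0.42 ± 0.14 (adjusted p = 0.024), and in myo-4 SUMO the value was -0.08 ± 0.14 (adjusted p = 0.66). For acox-3, the N2 arrays read 549.8, 531 and 511, the aex-3 SUMO arrays 539, 573 and 495 and the myo-4 SUMO arrays 676, 674 and 537. Neither acox-3 nor acox-1.2 was called in either line. These calls were sensitive to single arrays. In myo-4 SUMO the acox-1.1 call was lost without the third N2 or the second myo-4 SUMO array (adjusted p = 0.052 and 0.072). There acox-1.2 was called without the second N2 array (0.66, adjusted p = 0.021) but stood at -0.047 without the first. The acox-3 gene was called without the third myo-4 SUMO array (0.35, adjusted p = 0.035). In aex-3 SUMO the acox-1.6 call was lost without the first or the third array of that line (adjusted p = 0.086 and 0.080), acox-1.1 was called without the second N2 array (0.57, adjusted p = 0.0060), and acox-1.5 was called without the first (0.34, adjusted p = 0.027).

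Of the enoyl-CoA hydratases ech-7 rose most. In N2 the ech-7 signals were 69.9, 134 and 108, against 334, 394 and 348 in aex-3 SUMO and 319.8, 361 and 291 in myo-4 SUMO. The line arrays were all far above N2, and the changes were 1.82 ± 0.19 (adjusted p = 3.3e-05) and 1.67 ± 0.19 (adjusted p = 5.2e-05). Signals of ech-2 were 110.1, 135 and 128 in N2, 196, 188 and 230.1 in aex-3 SUMO and 191, 185 and 214 in myo-4 SUMO. The increase of ech-2 was 0.71 ± 0.12 (adjusted p = 0.00068) and 0.65 ± 0.12 (adjusted p = 0.0013), with no overlap. Array signals for ech-3 were 89.2, 69.6 and 111 in N2, 66.7, 57.7 and 53.8 in aex-3 SUMO and 50.2, 53.7 and 58.2 in myo-4 SUMO. All line arrays of ech-3 lay below N2, at -0.57 ± 0.16 (adjusted p = 0.013) and -0.70 ± 0.16 (adjusted p = 0.0047), and the call in aex-3 SUMO was lost without the third N2 array (adjusted p = 0.052) or the third aex-3 SUMO array (adjusted p = 0.057). The other 7 ech genes were called in neither line. Among them were ech-1.1 and ech-1.2, homologues of the alpha subunit of the mitochondrial trifunctional protein, which joins the hydratase and dehydrogenase steps on long chains. The ech-6 hydratase acts after acdh-1 in the propionate shunt. Readings of ech-6 came to 1872, 2551 and 1286 in N2, 2435, 2534 and 2615 in aex-3 SUMO and 1952, 2210 and 2380 in myo-4 SUMO. The third N2 array was lowest, the second lay within the aex-3 SUMO range, and the changes of 0.46 ± 0.19 (adjusted p = 0.055) and 0.25 ± 0.19 (adjusted p = 0.30) did not pass the threshold. Without the second N2 array ech-6 was called in both lines, at 0.70 (adjusted p = 0.0032) and 0.49 (adjusted p = 0.023). Without the first, ech-8 was called in both, at -0.41 (adjusted p = 0.036) and -0.53 (adjusted p = 0.010).

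The single hydroxyacyl-CoA dehydrogenase in the set, hacd-1, had the widest N2 spread among the 57 genes. The hacd-1 signal was 43, 409 and 242 on the N2 arrays, 352, 392 and 378 in aex-3 SUMO and 416, 435 and 473 in myo-4 SUMO. The first N2 array was far below the rest, and the second lay above every aex-3 SUMO array and below every myo-4 SUMO array. The changes were 1.19 ± 0.55 (adjusted p = 0.089) and 1.43 ± 0.55 (adjusted p = 0.0497). Without the first N2 array they were 0.25 (adjusted p = 0.24) and 0.49 (adjusted p = 0.033), and without the second they were 1.85 (adjusted p = 0.0090) and 2.09 (adjusted p = 0.0052). The call in myo-4 SUMO was lost without any 1 array of either line (adjusted p = 0.063 to 0.11).

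The lysosomal acid lipase homologues that were called all fell. For lipl-2, the N2 arrays read 706, 687 and 1253, the aex-3 SUMO arrays 216, 224 and 118 and the myo-4 SUMO arrays 122, 94 and 159. The third N2 array was the highest, and every line array was below all of N2. The changes of lipl-2 were -2.23 ± 0.28 (adjusted p = 7.9e-05) and -2.78 ± 0.28 (adjusted p = 2.1e-05), the largest decrease among the 57 genes in either line. In N2 the lipl-5 signals were 1199, 961 and 1361, against 664, 700.4 and 507 in aex-3 SUMO and 558, 564 and 761 in myo-4 SUMO. For lipl-5 no array of the lines reached the lowest N2 array, at -0.91 ± 0.17 (adjusted p = 0.00087) and -0.90 ± 0.17 (adjusted p = 0.0010). Signals of lipl-1 were 287, 247 and 335 in N2, 193, 187 and 179.5 in aex-3 SUMO and 218, 206 and 235 in myo-4 SUMO. In C. elegans lipl-1 and lipl-3 are induced by fasting through the transcription factor HLH-30, and lipl-1 fell by 0.62 ± 0.12 (adjusted p = 0.0015) and by 0.39 ± 0.12 (adjusted p = 0.022) on the log2 scale. Array signals for lipl-3 were 16.4, 22 and 9.7 in N2, 8.1, 1.91 and 14.2 in aex-3 SUMO and 2.28, 6.76 and 3.14 in myo-4 SUMO. Several lipl-3 arrays were near the bottom of the scale, and the values were -1.05 ± 0.52 (adjusted p = 0.11) and -1.65 ± 0.52 (adjusted p = 0.022), the call in myo-4 SUMO being lost without the second N2 array (adjusted p = 0.078), the first myo-4 SUMO array (adjusted p = 0.088) or the third (adjusted p = 0.060). In aex-3 SUMO lipl-3 was called without the third array of that line (-1.53, adjusted p = 0.0457). The changes of lipl-7 were -0.45 ± 0.13 (adjusted p = 0.012) and -0.37 ± 0.13 (adjusted p = 0.034). In myo-4 SUMO the lipl-7 call was lost without the first or second array of N2 or of that line (adjusted p = 0.052 to 0.16). The lipl-1 call there was lost without the third N2 array or the first or second myo-4 SUMO array (adjusted p = 0.063 to 0.090). Beside these decreases the summed intestine markers stood at most at 16810 in the lines and at least at 21540 in N2, as given above. The sums of body wall muscle markers (at most 16390 in the lines, at least 18720 in N2) and of neuron markers (1839 and 2589) were lower too. Those of epidermis, sperm and pharynx markers overlapped N2 in at least 1 line, and those of oocyte and eggshell markers were higher.

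The regulators of the lysosomal lipases moved in opposite directions. Readings of hlh-30 came to 148, 122 and 196 in N2, 92.9, 107 and 83.5 in aex-3 SUMO and 96.5, 98.2 and 73.4 in myo-4 SUMO. The activator gene hlh-30, named here after its values were seen, fell by 0.69 ± 0.18 (adjusted p = 0.0070) and by 0.77 ± 0.18 (adjusted p = 0.0040) on the log2 scale. The mxl-3 signal was 47.9, 71.7 and 52.2 on the N2 arrays, 114, 132 and 123 in aex-3 SUMO and 102, 112 and 102 in myo-4 SUMO. The gene of the repressor MXL-3 rose by 1.099 ± 0.15 (adjusted p = 0.00013) and 0.88 ± 0.15 (adjusted p = 0.00059). In both genes the groups did not overlap. Whether these transcript changes bear on the lipl genes was not tested.

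**Figure D3:**
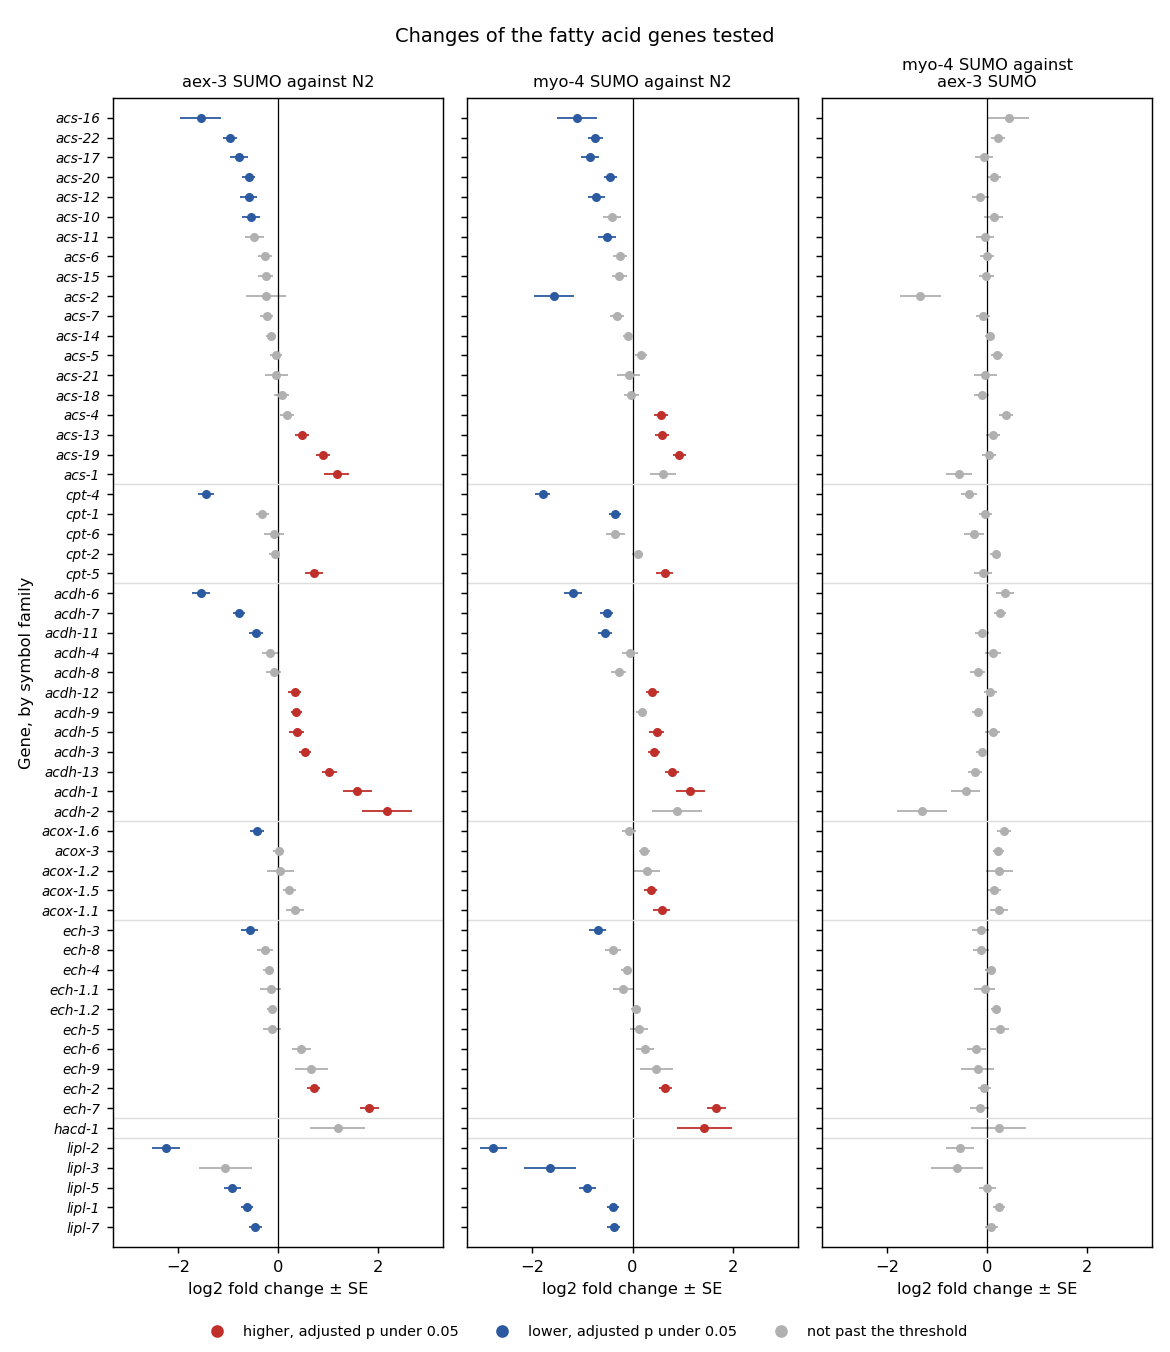
Log2 fold change ± SE of the 57 genes tested, by symbol family, in each line against N2 and between the lines; red and blue points passed the threshold upward and downward. The lipl points lie left of 0 in both comparisons with N2, acdh-2 lies furthest right in aex-3 SUMO and ech-7 in myo-4 SUMO, and no point between the lines is coloured.

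Between the lines, no member was called (0 of 57; 0.279% of all genes were called by limma). At an unadjusted p under 0.05 there were 6 of 57 members (10.5%) beside 8.74% of all genes. This fit takes 1 spread over all 9 arrays, and several members had N2 arrays that lay far apart. When only the 6 arrays of the lines were fitted, 5 members were called, which is 8.77% of the 57 beside 1.81% of all genes. The SE of acs-2 was 0.40 in the first fit and 0.15 in the second, for a difference of -1.33 (myo-4 SUMO minus aex-3 SUMO), and the adjusted p went from 0.27 to 0.0012. For acdh-2 the difference was -1.29, with an adjusted p of 0.45 in the fit of all arrays and 0.0043 in the fit of the 6. The remaining members called on the 6 arrays were acs-1 at -0.56 (adjusted p = 0.012), acdh-1 at -0.43 (adjusted p = 0.018) and acs-4 at 0.38 (adjusted p = 0.031). The arrays of the lines did not overlap for any of these 5 genes, and 7 members were entirely higher and 9 entirely lower in myo-4 SUMO, beside 12.5% and 8.4% of all genes. Leaving out the first N2 array in the fit of all groups called acs-2 between the lines (adjusted p = 0.00094), and leaving out the second called acdh-2 (adjusted p = 0.018).

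Of the 5 genes called on the 6 arrays of the lines, all but acs-4 were among the members with the widest spread in N2. The median SD of the members over 3 arrays was 0.25 in N2, 0.12 in aex-3 SUMO and 0.13 in myo-4 SUMO (log2), beside 0.23, 0.12 and 0.14 over all genes. An SD over 0.5 in N2 was found in 7 of the 57 members (12.3%) beside 8.93% of all genes. These were hacd-1 (1.67), acdh-2 (1.44), acs-2 (1.16), acdh-1 (0.86), acs-1 (0.71), acox-1.2 (0.71) and lipl-3 (0.54). For the first 5 of them the SD was at most 0.335 in aex-3 SUMO and 0.30 in myo-4 SUMO. The first N2 array was lowest for hacd-1, acs-2 and acs-1, the third was lowest for acdh-1 and acdh-2, and the second was highest for all of the first 5 genes. The second N2 array was the highest of its group in 26 of the 57 members (45.6%) beside 30% of all genes. This was not particular to N2, as the second aex-3 SUMO array was also highest in 26 members (45.6%), beside 35.3% of all genes. In myo-4 SUMO the second array was highest in 17 (29.8%) beside 28.9%.

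**Figure D4:**
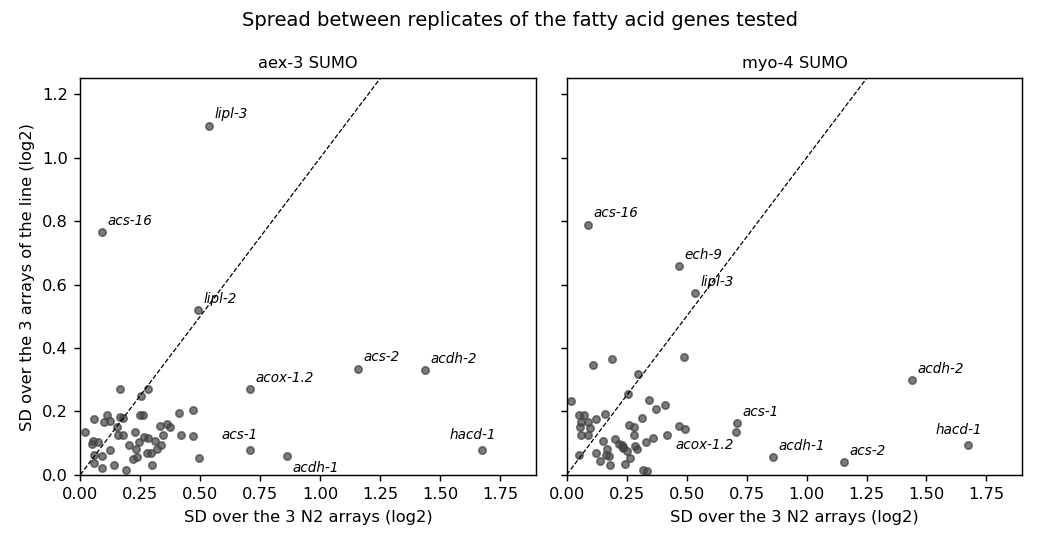
SD of each tested member over the 3 arrays of a line against its SD over the 3 N2 arrays (log2), with the line of equality dashed. Most points lie under 0.5 on both axes, and hacd-1, acdh-2, acs-2 and acdh-1 lie far to the right, with SDs in the lines of at most 0.335.

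Propionate, made from odd-chain and branched-chain fatty acids and some amino acids, is broken down in C. elegans by a vitamin B12-dependent route or by the shunt that acdh-1 opens. Besides acdh-1 and ech-6, 8 genes of the 2 routes were measured, of which 3 rose and 3 fell in each line (all genes 24.6% and 24.7% in aex-3 SUMO, 24.2% and 21.1% in myo-4 SUMO). For hach-1, the N2 arrays read 379, 454 and 251, the aex-3 SUMO arrays 726, 719 and 848 and the myo-4 SUMO arrays 543, 584 and 592. The shunt gene hach-1, which encodes the next hydrolase, rose by 1.12 ± 0.17 (adjusted p = 0.00032) and 0.70 ± 0.17 (adjusted p = 0.0059), the latter 0.46 without the third N2 array. In N2 the hphd-1 signals were 727, 1194 and 573, against 1417, 1402 and 1588 in aex-3 SUMO and 1059, 1118 and 1368 in myo-4 SUMO. The aex-3 SUMO arrays were above N2, and the second N2 array lay within the myo-4 SUMO range. For hphd-1, the following dehydrogenase, the changes were 0.89 ± 0.21 (adjusted p = 0.0038) and 0.57 ± 0.21 (adjusted p = 0.040), and the latter was 0.33 (adjusted p = 0.16) without the third N2 array and 0.86 without the second. The hphd-1 call in myo-4 SUMO was lost without any 1 array other than the second N2 array (adjusted p = 0.052 to 0.16). Signals of alh-8 were 2924, 2265 and 2454 in N2, 1682, 1752 and 1627 in aex-3 SUMO and 1419, 1652 and 1571 in myo-4 SUMO. The last shunt gene, alh-8, went the other way at -0.59 ± 0.11 (adjusted p = 0.0011) and -0.71 ± 0.11 (adjusted p = 0.00034), so the shunt genes did not move as one.

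On the B12-dependent side pccb-1, a subunit gene of propionyl-CoA carboxylase, fell, and mmaa-1, the homologue of a human gene that helps load the cofactor, rose. Array signals for pccb-1 were 1167, 1045 and 1005 in N2, 752, 802 and 780.2 in aex-3 SUMO and 699.5, 799 and 827 in myo-4 SUMO. Its changes were -0.46 ± 0.10 (adjusted p = 0.0032) and -0.47 ± 0.10 (adjusted p = 0.0032). Readings of mmaa-1 came to 163, 168 and 120.1 in N2, 264, 275 and 276 in aex-3 SUMO and 251, 224 and 233 in myo-4 SUMO. The groups were apart for both genes, and mmaa-1 changed by 0.86 ± 0.13 (adjusted p = 0.00028) and 0.66 ± 0.13 (adjusted p = 0.0017). The partner subunit pcca-1 was called in myo-4 SUMO (-0.42, adjusted p = 0.034), and it was not without the third N2 array (adjusted p = 0.12) or without any 1 myo-4 SUMO array (adjusted p = 0.051 to 0.13). The epimerase gene mce-1 was called in aex-3 SUMO (-0.31, adjusted p = 0.043), a call lost without any 1 of 6 arrays (adjusted p = 0.057 to 0.18), and mmcm-1, the mutase gene, was called in neither. The nuclear receptor NHR-68 activates the shunt genes in C. elegans together with NHR-10. The nhr-68 signal was 91.5, 133 and 98.3 on the N2 arrays, 197, 206 and 184 in aex-3 SUMO and 164, 154 and 148 in myo-4 SUMO. The changes of nhr-68 were 0.87 ± 0.14 (adjusted p = 0.00037) and 0.54 ± 0.14 (adjusted p = 0.0073), while nhr-10 was called only downward, in myo-4 SUMO (-0.52, adjusted p = 0.022). Values of hphd-1, pcca-1, mce-1 and nhr-10 are given after they were seen.

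Monomethyl branched-chain fatty acids are made by the elongases of elo-5 and elo-6, whose values were likewise seen before they were named. For elo-5, the N2 arrays read 488, 1820 and 976, the aex-3 SUMO arrays 2197, 2353 and 2216 and the myo-4 SUMO arrays 2136, 2294 and 2294. The line arrays were all above N2 and the first N2 array was lowest, as it was for acs-1. The changes of elo-5 were 1.24 ± 0.32 (adjusted p = 0.0067) and 1.23 ± 0.32 (adjusted p = 0.0077), or 0.76 and 0.75 without the first N2 array. For elo-6 they were 0.91 ± 0.25 (adjusted p = 0.0097) and 0.84 ± 0.25 (adjusted p = 0.017), or 0.52 and 0.45 without that array.

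**Figure D5:**
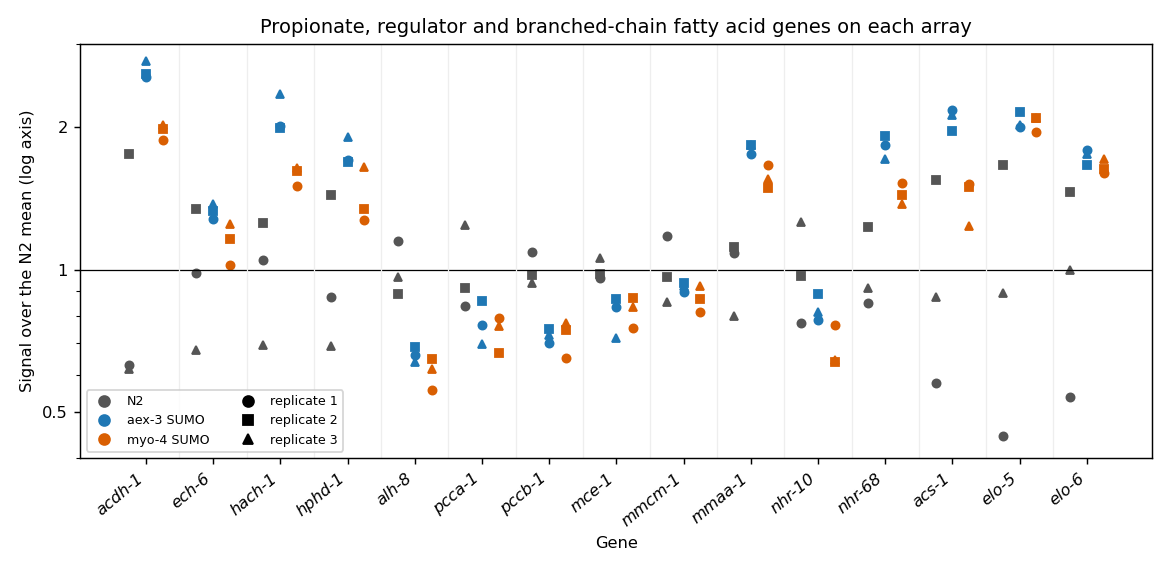
Signal over the mean of the N2 arrays on a log axis for propionate, regulator and branched-chain fatty acid genes; each point is 1 array, with groups by colour and replicates by shape. In acdh-1, hach-1 and mmaa-1 the line arrays all lie above the N2 arrays, in alh-8 and pccb-1 all below, and the first N2 array is lowest in acs-1, elo-5 and elo-6.

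Genes acting around the members moved in both directions. Over all genes 24.6% rose and 24.7% fell in aex-3 SUMO and 24.2% and 21.1% in myo-4 SUMO, the shares against which the counts of these lists are read. In the list of thiolysis and the peroxisomal side of beta-oxidation 4 of 13 rose and 1 fell in each line. In N2 the pmp-5 signals were 51.2, 189.6 and 98.8, against 319, 304 and 369 in aex-3 SUMO and 327, 309 and 358 in myo-4 SUMO. The changes of pmp-5, a gene of the peroxisomal ABC transporter family, were 1.72 ± 0.32 (adjusted p = 0.00096) and 1.73 ± 0.32 (adjusted p = 0.0011), and every line array exceeded N2. Another gene of that family, pmp-1, rose by 0.91 ± 0.23 (adjusted p = 0.0061) and 0.87 ± 0.23 (adjusted p = 0.0088), or by 0.56 and 0.51 without the first N2 array. Isovaleryl-CoA dehydrogenase, the ivd-1 product of leucine breakdown, had 0.49 ± 0.12 (adjusted p = 0.0040) and 0.64 ± 0.12 (adjusted p = 0.00094). The peroxisomal catalase gene ctl-2 fell by 0.52 ± 0.11 (adjusted p = 0.0021) and by 0.42 ± 0.11 (adjusted p = 0.0085) on the log2 scale. Among 11 genes of peroxisome biogenesis 2 rose and 3 fell in aex-3 SUMO and 1 and 2 in myo-4 SUMO. These included prx-19 at 0.71, adjusted p = 0.00029 and 0.47, adjusted p = 0.0042, prx-13 at -0.87, adjusted p = 0.00031 and -0.70, adjusted p = 0.0013, and prx-5 at -0.45, adjusted p = 0.0083 and -0.47, adjusted p = 0.0073. The prx-2 decrease in aex-3 SUMO (-0.62, adjusted p = 0.030) was not called without the third N2 array (-0.39, adjusted p = 0.13), the second, or the first or the third aex-3 SUMO array (adjusted p = 0.068 to 0.10).

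Among 13 genes that bind acyl-CoA or fatty acids, 3 rose and 2 fell in aex-3 SUMO and 2 and 2 in myo-4 SUMO (all genes 24.6% and 24.7%, then 24.2% and 21.1%). The acyl-CoA binding protein genes acbp-5 (0.95, adjusted p = 0.00016 and 0.88, adjusted p = 0.00029) and acbp-6 (0.76, adjusted p = 0.0030 and 0.78, adjusted p = 0.0030) rose. The lipid-binding protein genes lbp-1 (-0.50, adjusted p = 0.0029 and -0.79, adjusted p = 0.00019) and lbp-7 (-0.77, adjusted p = 0.0034 and -0.77, adjusted p = 0.0038) fell. Of 16 regulators of fat metabolism 3 rose and 6 fell in aex-3 SUMO and 3 and 5 in myo-4 SUMO, beside the same shares of all genes. The decreases included the Krüppel-like factor gene klf-3 (-0.99, adjusted p = 0.00022 and -0.87, adjusted p = 0.00053) and the nuclear receptor gene nhr-80 (-0.95, adjusted p = 0.00069 and -0.85, adjusted p = 0.0016), which acts on fatty acid desaturases. The energy sensor gene aak-2, a catalytic subunit of AMP-activated kinase, fell by 0.85 ± 0.16 (adjusted p = 0.00092) and by 0.83 ± 0.16 (adjusted p = 0.0012) on the log2 scale. The gene of the other catalytic subunit, aak-1, named after its values were seen, went the other way. It rose by 0.33 ± 0.13 (adjusted p = 0.046) and 0.37 ± 0.13 (adjusted p = 0.029). The first of these lies close to the threshold, and whether the aak-1 calls hold under the alternatives is not given.

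Fat synthesis was mixed, with 7 of 18 genes higher and 6 lower in aex-3 SUMO and 7 and 5 in myo-4 SUMO, beside 24.6% and 24.7% of all genes in the first line and 24.2% and 21.1% in the second. Signals of fat-5 were 17.1, 37 and 18.7 in N2, 74.4, 63.3 and 75.8 in aex-3 SUMO and 64, 66.3 and 54.1 in myo-4 SUMO. The palmitate desaturase gene fat-5 rose by 1.57 ± 0.23 (adjusted p = 0.00023) and 1.36 ± 0.23 (adjusted p = 0.00060). Array signals for fat-3 were 2368, 2404 and 3047 in N2, 1244, 1242 and 1038 in aex-3 SUMO and 982, 1059 and 1221 in myo-4 SUMO. The polyunsaturated fatty acid desaturase gene fat-3 fell at -1.14 ± 0.13 (adjusted p = 5.0e-05) and -1.26 ± 0.13 (adjusted p = 2.4e-05). The elongase gene elo-2 rose (0.92, adjusted p = 0.00096 and 1.01, adjusted p = 0.00059), elo-3 fell in aex-3 SUMO (-1.14, adjusted p = 0.00051), and fat-4 fell in both lines (-0.54, adjusted p = 0.0028 and -0.64, adjusted p = 0.0011). Of 5 genes of lipolysis at the lipid droplet, 2 rose and 1 fell in aex-3 SUMO, and 1 rose in myo-4 SUMO. The perilipin gene plin-1 rose in both (0.52, adjusted p = 0.0060 and 0.58, adjusted p = 0.0035), lid-1 rose in aex-3 SUMO (0.55, adjusted p = 0.016), and the hormone-sensitive lipase gene hosl-1 fell there (-1.15, adjusted p = 0.013). Without the third aex-3 SUMO array hosl-1 was not called (-0.88, adjusted p = 0.066), nor was lid-1 without the third N2 array (adjusted p = 0.057) or the first aex-3 SUMO array (adjusted p = 0.068). No gene of these lists was called between the lines.

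The 8 members under the filter were acs-3, acs-23, acs-24, acs-25, cpt-3, lipl-4, lipl-6 and lipl-8, and the 9 member probe sets left out had signals of 0.264 to 20.0. The lipl-4 gene, whose overexpression in the intestine is known to lengthen life in C. elegans, was under the 40th percentile on every array. Its signals were 10.05, 10.68 and 10.39 in N2, 1.656, 3.828 and 0.2999 in aex-3 SUMO and 1.716, 4.307 and 1.588 in myo-4 SUMO. No fold or test is given for signals this dim. Of the 57 genes tested, 51 were above the filter on all 9 arrays, and none passed through N2 arrays alone. The other 6 were acs-16, acs-21, acdh-2, acdh-6, ech-9 and lipl-3. For lipl-3, 2 arrays of N2, 1 of aex-3 SUMO and 0 of myo-4 SUMO were above it. The filter thus kept lipl-3 mostly through N2, so its decrease is not independent of the filter. For ech-9 the numbers were 0, 3 and 2 in the same order, and for acdh-2 they were 1, 3 and 3. Both were kept mostly through the lines, so the increase of acdh-2 is likewise not independent of the filter. The 10 genes with several probe sets tested had the same call from each of them in all 3 comparisons. By the RefSeq gene table of assembly WBcel235, 3 pairs of members are neighbours on their chromosomes. These were acox-1.1 with acox-1.2, ech-9 with ech-8, and ech-8 with lipl-7. Of these genes acox-1.2, ech-8 and ech-9 were called in neither line.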

How the data were processed

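RNA of whole animals was measured on 9 Affymetrix arrays, 3 per group. Per the submitters' processing notes the authors used GCOS, and the deposited table gives each probe set a linear intensity. The 2% trimmed means of the arrays differed by 0.0089%, so the deposited intensity was taken as scaled and used as it stood. Detection calls are not part of the table used here. Probe sets were named through the platform annotation (20766 with 1 gene, 887 with several, 895 with none), and symbols were matched by gene identifier to the RefSeq table of assembly WBcel235, for all 76 member probe sets.

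After 77 control probe sets were left out, intensity was transformed as log2(signal + 1.623), where the offset is the middle value of the arrays' 10th percentiles and shrinks changes of dim genes. A probe set was kept if 3 or more arrays had it above their own 40th percentile, which 14204 did. All arrays entered 1 fit in limma 3.58.1 (R 4.3.3; lmFit, eBayes with trend) with 6 residual and 6.88 prior degrees of freedom, and p-values are two-sided. For counts of genes, the probe set with the highest mean signal stood for each gene, which gave 10768 genes. The fit was tested on simulated data.

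Replicate numbers were not taken as pairs: the correlations of same-numbered deviations were -0.194 to 0.0295. The submitters describe the replicates as separate populations, and the number of arrays limits the precision. Alternatives covered scaling, filter, offset, the trend, the block, the arrays fitted and each array left out. Members called in any comparison may be named, with values on every array for up to 3 of each family in each direction and for the brightest, and from each list of related genes up to 4 called members with the smallest p. The members and lists were chosen with earlier results of these data known.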

Additional observations from a re-analysis of the deposited data

How the results depend on the processing

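Of the 29 members called in aex-3 SUMO, 19 kept their call under every alternative in which they were tested, and of the 32 called in myo-4 SUMO 20 did (17 alternatives, or 16 for acs-10, acs-16, acdh-5 and acdh-6 in the first line and acs-16, acdh-5, acdh-6 and lipl-3 in the second, which the stricter filter drops); no called member changed direction under any of them. Calls were lost most often for acdh-12 and acdh-5 in aex-3 SUMO and for cpt-1, acox-1.5, acs-11, acs-16 and hacd-1 in myo-4 SUMO. With median centring, 10 members were called lower in aex-3 SUMO. Leaving out each array in turn gave 11 to 17 members called lower in myo-4 SUMO. Between the lines the main count of 34 probe sets became 21 without the intensity trend, 246 with only the 6 arrays of the lines, and 13 to 92 when 1 array was left out. Members called between the lines were 1 higher and 4 lower with the 6 arrays, and 0 to 1 lower when 1 array was left out. Of the members not called, 16 of 28 in aex-3 SUMO, 10 of 25 in myo-4 SUMO and 18 of 57 between the lines turned sign under at least 1 alternative. Among the values named here these were acs-2 in aex-3 SUMO without the second N2 array (0.11) and without the third (0.08), in a range of -0.91 to 0.11 over all arrays left out. In myo-4 SUMO acox-1.6 stood at 0.074 with median centring and at 0.022 without the second myo-4 SUMO array (range -0.21 to 0.022), and ech-6 at -0.0083 without the third N2 array (range -0.0083 to 0.49). In the same line acox-1.2 stood at -0.047 without the first N2 array (range -0.047 to 0.66). The cause of these shifts was not tested. With the replicate number as a block, members called were 11 higher and 16 lower in aex-3 SUMO, 13 and 16 in myo-4 SUMO and 0 between the lines, and probe sets called were 6464, 5971 and 36 in that order. Under the block the calls of acdh-12, acdh-5 and mce-1 in aex-3 SUMO and of acs-16, cpt-1, acox-1.5 and lipl-7 in myo-4 SUMO were lost, and ech-8 in myo-4 SUMO was called (-0.39, adjusted p = 0.045). Against N2 the SE was largest for hacd-1 (0.55), lipl-3 (0.52) and acdh-2 (0.50). Of these, lipl-3 was dim on most arrays, and acdh-2 was dim on the first and the third N2 array (15.25 and 13.39). The hacd-1 signal was above the filter on every array.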
